A study of Mus musculus with 6 samples.

Results

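The genes described here are 10 members of the Notch pathway, chosen by name as 3 receptors (*Notch1*, *Notch2*, *Notch3*), 3 ligands (*Jag1*, *Jag2*, *Dll1*) and 4 target genes (*Hes1*, *Hey1*, *Hey2*, *Heyl*), out of 32286 genes in the count matrices. Each was found once, by its symbol, in all 6 libraries, and all 10 passed the filter on low counts. The libraries come from "digits in a dish" (DID) cultures, in which dissociated cells of the limb bud are plated at high density without a scaffold. All 6 were seeded with embryonic distal forelimb mesenchyme of wild-type CD-1 mice at E11.5, pooled over embryos, and were sampled at Day 2, Day 7 or Day 10 of culture. Replicates A and B of each day were independent cultures with no other treatment, and cells of several embryos are mixed in each. Time in culture is the difference the labels give, and whether the days shared a seeding or a sequencing run is not given in the sources used here. RNA was counted with a droplet method that reads the 3′ end of each transcript and counts molecules by unique molecular identifiers (UMIs).

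Notch receptors are single-pass membrane proteins that are cut when a ligand of the Jagged or Delta-like family on a neighbouring cell binds them, and the freed intracellular part joins Rbpj in the nucleus. There it switches on repressors of the Hes and Hey families, so receptor and target act in the same cell and the ligand is on its neighbour. In the limb the pathway is best known for holding muscle progenitors and mesenchymal progenitors back from differentiation, *Dll1* being a ligand of differentiating muscle cells, and for shaping cartilage maturation and the joint.

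The upstream sequences shown are those of the receptor and the ligand with the largest fall between Day 2 and Day 7, *Notch3* and *Dll1*, and of *Hey2*, the only target gene of the 4 in the table of RefSeq starts (GRCm38.p6; 7 of the 10 genes were in it). Each run holds the 250 bases before a RefSeq transcript start, 5′ to 3′ on the strand of the gene, which is the minus strand for all 3, and for *Dll1* the start nearest to the annotated 5′ end of the gene was taken. Capitals mark the core of the Rbpj motif, GTGGGAA, searched on both strands (TTCCCAC on the strand shown).
Notch3, chr17:32166891-32167140: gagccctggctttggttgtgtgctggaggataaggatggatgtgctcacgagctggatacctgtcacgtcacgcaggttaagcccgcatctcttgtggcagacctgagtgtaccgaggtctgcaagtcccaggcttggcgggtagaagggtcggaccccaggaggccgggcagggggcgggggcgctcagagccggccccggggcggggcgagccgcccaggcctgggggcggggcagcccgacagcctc
Dll1, chr17:15376933-15377182: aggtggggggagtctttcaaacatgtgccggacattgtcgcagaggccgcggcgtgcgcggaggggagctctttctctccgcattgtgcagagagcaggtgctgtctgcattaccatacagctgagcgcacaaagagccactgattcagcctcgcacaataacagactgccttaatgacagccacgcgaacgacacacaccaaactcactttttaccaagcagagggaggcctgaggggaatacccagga
Hey2, chr10:30842784-30843033: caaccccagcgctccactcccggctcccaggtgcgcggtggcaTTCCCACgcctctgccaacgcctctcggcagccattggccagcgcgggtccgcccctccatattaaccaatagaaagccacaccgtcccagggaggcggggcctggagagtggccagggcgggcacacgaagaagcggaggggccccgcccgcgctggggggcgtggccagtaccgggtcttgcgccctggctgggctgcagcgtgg
The letters occurred only in the *Hey2* window, 207 bases before the start, and 5.415% of 32851 upstream windows of that length hold them on either strand. A match of 7 letters describes the sequence and is not a measured binding site. In the GRCm38 annotation the genes themselves, all protein-coding, lie at chr17:32120820-32166852 for *Notch3*, chr17:15367354-15376872 for *Dll1* and chr10:30832359-30842801 for *Hey2*, and *Hes1*, the most abundant of the 10, lies on the plus strand at chr16:30064384-30067796.

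After the cell limits of the study, the Day 2 libraries kept 9448 (replicate A) and 16486 (replicate B) cells, those of Day 7 13485 and 12346, and those of Day 10 10385 and 9949, with 178022112 to 260245417 UMIs per library. Day 2 replicate B stands apart in depth: its cells held a median of 3871 UMIs and 41.4% of them had fewer than 3000, against 18587 UMIs and 6.84% in replicate A. The other libraries had medians of 8062 to 24197 UMIs. Shallow cells were also common on Day 7, where 30.8% and 23.5% had fewer than 3000 UMIs, against 7.92% and 10.9% at Day 10. Between 24 and 67 barcodes were shared by any pair of libraries, at most 0.543% of the smaller one. Clusters rebuilt for each day (13, 16 and 20) were named from marker lists, and 7, 7 and 9 of them took a name: chondrocyte-like and immune-like clusters were found on every day, myocyte-like and joint interzone-like clusters at Day 2 and Day 7, contractile-like and interdigital-like clusters at Day 2 and Day 10, and an osteoblast-like cluster at Day 10. The interdigital-like name is weak at Day 10, where neither *Wnt5a* nor *Aldh1a2* was enriched in Clusters 1 and 18. *Prg4*, an articular marker, was among the 10 leading genes of Cluster 1, and Cluster 18 had 0 interdigital markers among its own. The study named no interdigital cluster on that day and annotated its *Prg4* cluster as articular perichondrium. No cluster was named tenocyte-like (Cluster 8 of Day 10 had 4 enriched tenocyte markers, but its leading genes held more markers of another class), and the share of cells in unnamed clusters (replicates A and B) was 41.7% and 74.7% at Day 2, 53.6% and 45.9% on Day 7 and 53.8% and 55.9% at Day 10. Endothelial cells, where Notch signalling is also well known, formed no cluster, and their 8 markers summed to 14.6 to 21.3 CPM (UMIs of a gene scaled to a common library total) in the 6 libraries.

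The first comparison asked how the level of each gene in the whole culture moved with time. Levels are CPM after TMM scaling, summed over all kept cells of a library, so a lower value can come from fewer cells that hold a transcript or from less of it in each cell, and these cannot be told apart in such sums. Because only 3′ ends are counted, a level does not depend on transcript length. Levels of named cell classes set against all other cells are TMM scaled too, while those given for a single cluster and the summed levels of marker genes are CPM without it.

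Among the receptors, *Notch3* fell and then recovered in part, while *Notch1* and *Notch2* stayed in a narrow range apart from a high *Notch2* level in Day 2 replicate B. *Notch3* was at 15.1 and 15.9 CPM at Day 2 (replicates A and B), 4.75 and 4.31 on Day 7 and 6.58 and 5.74 at Day 10. The 3 days did not overlap, with Day 2 far above the others and Day 10 above Day 7. The log2 change was −1.78 ± 0.08 (SE, n = 2 libraries per day) from Day 2 to Day 7, a level 3.42 times lower (edgeR quasi-likelihood test, adjusted p = 2.38e-07), and 0.44 ± 0.08 from Day 7 to Day 10 (adjusted p = 0.00271).

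*Notch1* was at 15.5 and 15.0 at Day 2, 17.0 and 16.2 on Day 7 and 15.3 and 14.0 at Day 10. The Day 7 libraries were the highest, and the small fall to Day 10, −0.18 ± 0.06, passed the test at an adjusted p of 0.0357, a call lost without either Day 7 library, without Day 10 replicate B and by the DESeq2 Wald test. *Notch2* was at 24.1 and 33.7 at Day 2, 26.0 and 23.6 on Day 7 and 24.3 and 23.4 at Day 10. Its single high library was Day 2 replicate B, the shallow one, and no change passed the test with all libraries, although the Day 7 minus Day 2 difference became −0.43 (adjusted p = 0.00102) without Day 2 replicate A, was 0.040 without Day 2 replicate B and was −0.16 in cells of at least 3000 UMIs. Its Day 10 minus Day 2 difference, −0.27, was called at −0.49 (adjusted p = 0.000441) without Day 2 replicate A, at −0.25 (adjusted p = 0.0377) with no filter on low counts and at −0.31 (adjusted p = 0.0468) without the myocyte-like cells described below, and it was −0.014 without Day 2 replicate B. The excess of replicate B lay in clusters of low depth. In Cluster 0, with medians of 1694 and 1971.5 UMIs per cell, *Notch2* was at 39.1 CPM in replicate A and 90.6 in replicate B. In Cluster 2 it was at 35.8 and 85.6. These clusters were small in replicate A, with 476 and 5930 cells (A and B) in Cluster 0 and 89 and 2645 in Cluster 2. Cluster 0 held 3985367 UMIs in replicate A and 15551944 in replicate B, so its mean depth per cell was higher in replicate A despite the like medians.

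Among the ligands, *Dll1* fell most, *Jag1* fell and came back, and *Jag2* was rare throughout. *Dll1* was counted in 300 and 216 UMIs at Day 2 (1.30 and 1.06 CPM), 31 and 12 on Day 7 (0.159 and 0.0646) and 12 and 14 at Day 10 (0.0490 and 0.0630). The Day 2 libraries stood clear of the other 4, and the Day 7 libraries differed from each other. The log2 change from Day 2 to Day 7 was −3.39 ± 0.33, a level 10.5 times lower (edgeR, adjusted p = 1.88e-05), and it was −4.17 without Day 7 replicate A and −2.88 without Day 7 replicate B. The change from Day 7 to Day 10 did not pass the test, but did without Day 7 replicate B (−1.50, adjusted p = 0.0128) and with no filter on low counts (−0.996, adjusted p = 0.0499).

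*Jag1*, the more widely expressed Jagged ligand, was at 10.9 and 12.4 CPM at Day 2, 8.03 and 8.35 on Day 7 and 10.6 and 9.84 at Day 10. Day 7 was below both other days without overlap. It fell by 0.50 ± 0.08 on the log2 scale to Day 7 (edgeR, adjusted p = 0.000346), and rose by 0.32 ± 0.08 from there to Day 10 (adjusted p = 0.00816), a call lost without Day 7 replicate A, without Day 10 replicate A, or when all deposited barcodes were summed (0.10, adjusted p = 0.331). *Jag2* was at 0.593 and 0.610 at Day 2, 0.353 and 0.490 on Day 7 and 0.474 and 0.405 at Day 10, and its difference from Day 2 to Day 7, −0.51 ± 0.21, did not pass the test (adjusted p = 0.0508). It passed under 4 alternatives, among them without Day 7 replicate B (−0.76, adjusted p = 0.0276), and was −0.28 without Day 7 replicate A.

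Of the targets, *Hes1* was by far the most abundant and moved like *Jag1* and *Hey1*, down on Day 7 and up again at Day 10. *Hes1*, a repressor that many signals besides Notch switch on, was at 319 and 392 CPM at Day 2, 241 and 273 on Day 7 and 318 and 345 at Day 10. The Day 7 libraries were the lowest and Day 2 and Day 10 overlapped. The Day 10 minus Day 2 difference, −0.10 ± 0.10, did not pass the test. It ranged from −0.24, without Day 2 replicate A, to 0.055 when 1 library was left out. The log2 change was −0.47 ± 0.10 to Day 7 (edgeR, adjusted p = 0.00321) and 0.37 ± 0.10 from Day 7 to Day 10 (adjusted p = 0.0167, lost without Day 7 replicate A or Day 10 replicate B). The 19 chondrocyte markers, all detected in each library, were highest on Day 7, with a summed level of 2714 and 3015 CPM at Day 2, 25003 and 23178 on Day 7 and 14859 and 13713 at Day 10, and their part in the dip of *Hes1*, *Jag1* and *Hey1* was not tested.

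*Hey1*, a Hes-related repressor, was at 10.5 and 9.21 at Day 2, 6.28 and 5.74 on Day 7 and 7.89 and 8.01 at Day 10, with no overlap between days. Its log2 changes were −0.71 ± 0.08 (edgeR, adjusted p = 4.67e-05) and 0.40 ± 0.08 (adjusted p = 0.0031). *Hey2*, the sparsest target, was at 0.779 and 0.762 at Day 2 against 0.553 and 0.468 on Day 7 and 0.613 and 0.428 at Day 10. It passed the test as lower on Day 7 (−0.59 ± 0.21, adjusted p = 0.0293), a call that was lost without Day 2 replicate A, Day 2 replicate B or Day 7 replicate B and by the DESeq2 Wald test. *Heyl* was at 1.76 and 1.35 at Day 2, 1.41 and 1.151 on Day 7 and 0.891 and 1.09 at Day 10, and passed as lower at Day 10 than at Day 2 (−0.66 ± 0.18, adjusted p = 0.00831), a call lost without Day 2 replicate A or Day 10 replicate A.

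**Figure D1:**
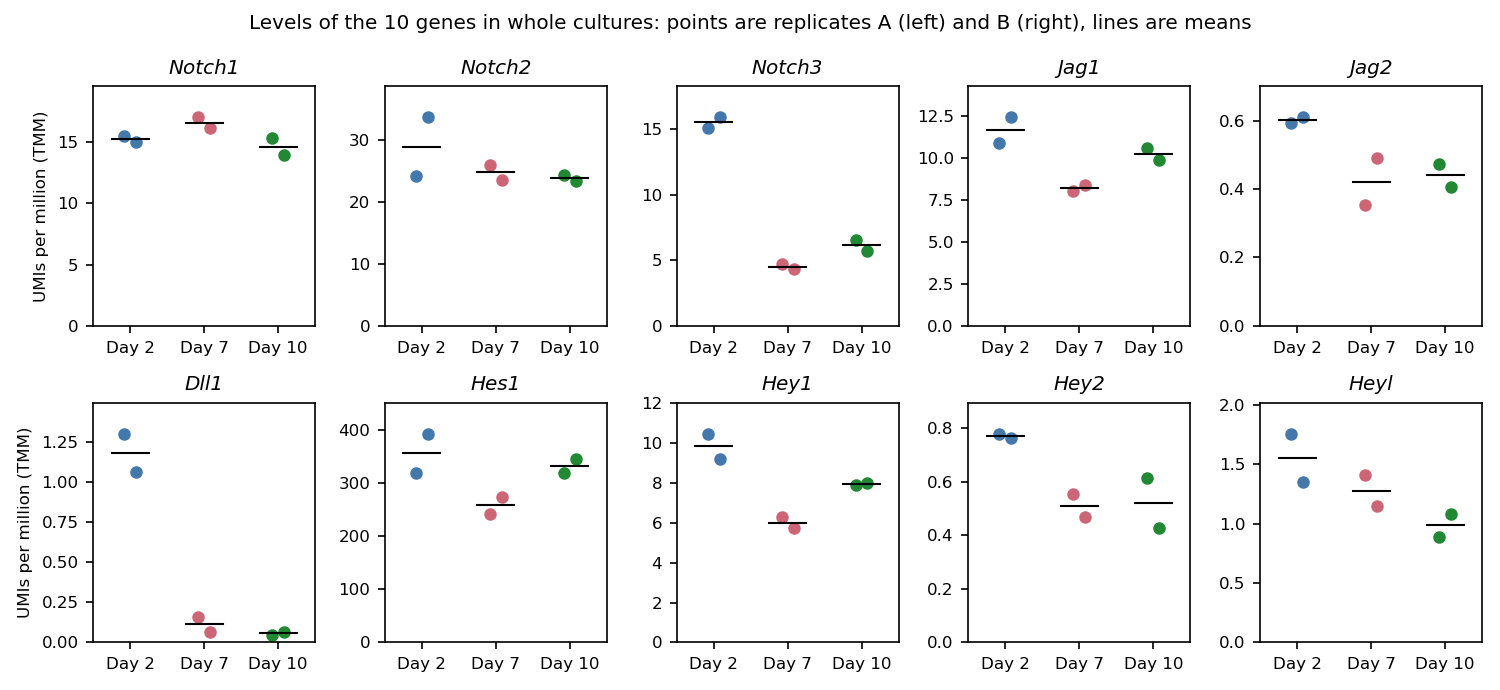
Level of each gene (CPM, TMM scaled, axes from 0) in replicates A and B of each day, with the mean of both as a line. *Notch3* and *Dll1* were highest at Day 2 and low after it, *Jag1*, *Hes1* and *Hey1* dipped on Day 7, and the *Notch2* point at 33.7 is Day 2 replicate B.

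In all, 6 of the 10 genes were lower on Day 7 than at Day 2 and 0 were higher, where 34.6% of the 18987 genes tested were called lower and 35.7% higher. From Day 7 to Day 10, 4 were higher and 1 lower, against 26.3% and 25.9% of all genes. At Day 10 against Day 2, 6 were lower and 0 higher, against 38.2% and 39.0%. The median log2 change of the 10 genes was −0.51, 0.05 and −0.38 in these 3 comparisons, and that of all genes tested 0.01, −0.02 and 0.00. Beside *Notch3*, *Dll1* and *Heyl*, the genes lower at Day 10 than at Day 2 were *Jag1* (−0.19 ± 0.08, adjusted p = 0.0487), *Hey1* (−0.31 ± 0.08, adjusted p = 0.00563) and *Hey2* (−0.56 ± 0.20, adjusted p = 0.0306), and the call for *Jag1* was lost without any 1 library except Day 2 replicate A. With the DESeq2 Wald test, no filter on low counts, cells of at least 3000 UMIs and the replicate block, 9 alternatives lost the *Jag1* call. That for *Hey2* was lost without Day 2 replicate A, Day 2 replicate B or Day 10 replicate B (−0.31, adjusted p = 0.203) and by the DESeq2 Wald test. The 3 comparisons share libraries and are not independent of each other.

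The second question was which cells hold each transcript. The clusters come from the same cells, with the 10 genes and 55 further pathway genes kept out of the genes used for clustering, so a class set against all other cells of its day is a description of the class more than a test. The clearest pattern was that of the myocyte-like cells at Day 2, marked by *Myog*, *Myod1* and myosin and troponin genes. They were 330 cells in replicate A and 673 in replicate B, and held 4.72% and 4.59% of all UMIs.

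These cells held 89.0% and 81.5% of the *Dll1* UMIs of the day, 267 of 300 and 176 of 216. *Dll1* was at 28.3 and 22.3 CPM in them and at 0.146 and 0.201 in all other cells, a log2 difference of 7.19 ± 0.24. Cells of at least 3000 UMIs were then thinned to that depth, and shallower cells were left out. Of the myocyte-like cells that remained, 7.10% (23 of 324, exact binomial 95% interval 4.55 to 10.5%) and 5.12% (20 of 391, 3.15 to 7.79%) had a *Dll1* UMI. In the chondrocyte-like cells, which serve as a reference for stray RNA, it was 0.147% (2 of 1358) and 0.0957% (1 of 1045). Over all cells of each class, before any were left out, median depths were 27303.5 and 3543 UMIs in the myocyte-like and 16553.5 and 20021.5 in the chondrocyte-like cells. These intervals cover counting error only.

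Of the other ligands, *Jag2* was also high there, at 4.56 and 5.70 against 0.416 and 0.398 in the remaining cells, and 31.4% and 36.3% of its UMIs lay in the class. *Jag1* went the other way, at 4.46 and 6.71 against 10.9 and 12.4. Of the targets, *Heyl* was at 15.1 and 12.03 against 1.17 and 0.902, with 34.98% and 34.7% of its UMIs, and *Hey1* was at 28.4 in both replicates against 9.50 and 8.31. *Hes1* was lower, at 190 and 256 against 318 and 392. Among the receptors, *Notch3* was at 22.4 and 23.4 against 14.5 and 15.4, *Notch2* was lower at 17.0 and 24.2 against 23.9 and 33.5, and *Notch1* differed by less than its error (−0.01 ± 0.14).

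In all, 8 of the 10 genes differed at an adjusted p under 0.05 in that class, as did 39.9% of all genes tested. The calls for *Notch2*, *Notch3*, *Jag1* and *Hes1* were each lost without Day 2 replicate A and also without Day 2 replicate B (adjusted p from 0.207 to 0.888), while those for *Dll1*, *Jag2*, *Hey1* and *Heyl* held without either Day 2 library. The class was made of Cluster 11, with 311 and 190 cells of high depth, and Cluster 10, with 19 and 483 cells of low depth. In Cluster 11 alone *Dll1* was at 27.9 and 24.5 CPM, *Hey1* at 27.6 and 31.4 and *Heyl* at 15.1 and 13.5. Cluster 10 had lower *Dll1*, at 13.9 and 8.56, with *Hey1* at 27.9 and 9.88 and *Heyl* at 0 and 3.29.

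**Figure D2:**
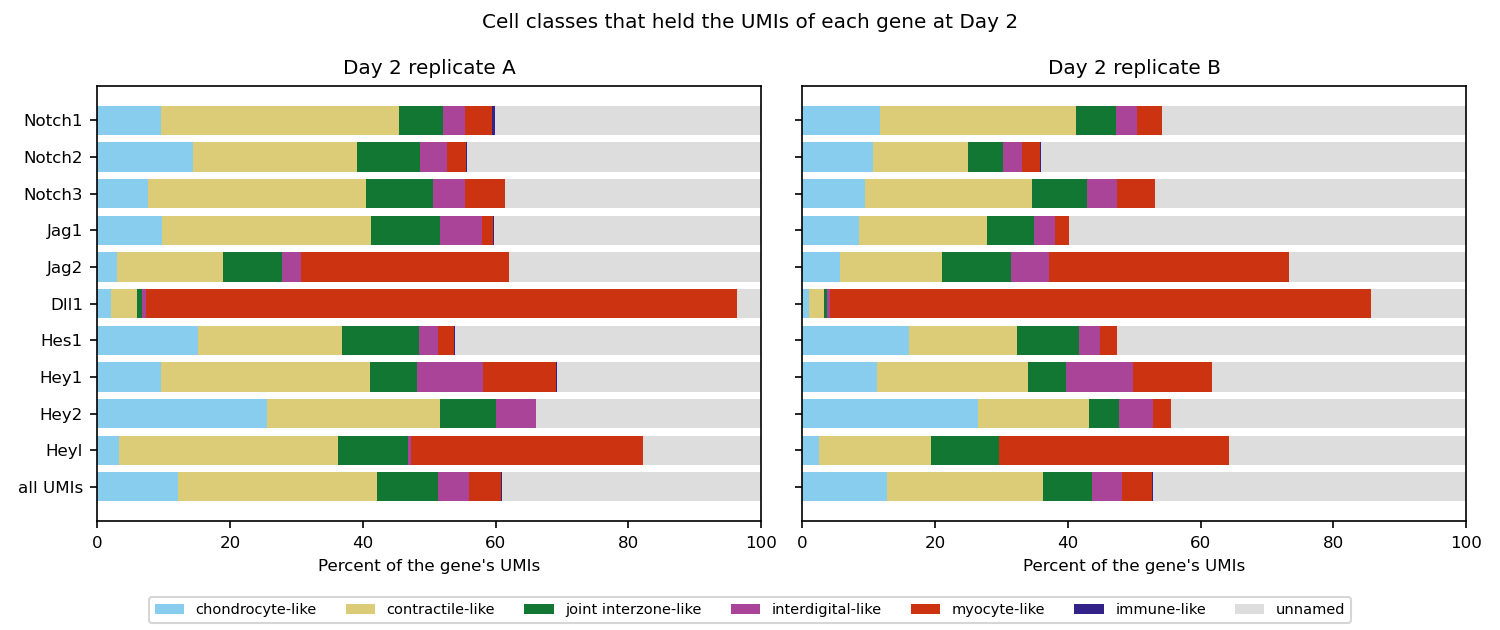
Percent of the UMIs of each gene held by each cell class in Day 2 replicates A and B, with all UMIs in the lowest bar. The myocyte-like share was 89.0% and 81.5% for *Dll1*, 31.4% and 36.3% for *Jag2* and 34.98% and 34.7% for *Heyl*, against 4.72% and 4.59% of all UMIs.

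Few such cells were left later. The summed level of the 10 myocyte markers was 585 and 454 CPM at Day 2, 56.6 and 26.5 on Day 7 and 3.92 and 9.74 at Day 10. At Day 7 the myocyte-like cluster had 83 and 61 cells with medians of 1610 and 1235 UMIs, and at Day 10 no cluster took the name, although the unnamed Cluster 11, with 444 and 264 cells and medians of 1326.5 and 1368 UMIs, was led by the muscle genes *Actc1*, *Mylpf* and *Tnnc2*. *Dll1* was at 0 and 0.819 CPM in it. With the myocyte-like cells left out of the sums, an alternative added after the data were seen, *Dll1* was at 0.151 and 0.207 CPM at Day 2, 0.0771 and 0.0646 on Day 7 and 0.0488 and 0.0627 at Day 10. It still passed the test as lower on Day 7 (−1.32, edgeR adjusted p = 0.00628), by far less than the −3.39 of the whole culture. *Heyl* was then at 1.20 and 0.927 at Day 2 and 0.886 and 1.08 at Day 10, and its Day 10 difference became −0.12 (adjusted p = 0.554), so that this call was lost. No cells were removed at Day 10, where the muscle-led Cluster 11 stayed in. The removal thus lowered Day 2 alone in that comparison, from 406 and 274 *Heyl* UMIs to 264 and 179. *Notch3* kept its fall at −1.76, and *Jag1*, *Hes1* and *Hey1* theirs at −0.55, −0.50 and −0.61.

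At Day 7, 5 of the 10 genes differed in the myocyte-like cluster (19.9% of all genes tested), and these values rest on few molecules. *Dll1* was counted in 16 UMIs in replicate A and in 0 in replicate B, so no level was shared by the replicates, and without replicate A the estimate turned to −5.74 (adjusted p = 0.985). *Jag2* was found in both, with 17 and 12 UMIs, at 21.4 and 62.2 CPM against 0.275 and 0.436 in all other cells.

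Within the myocyte-like clusters of Day 2, *Dll1* and *Jag2* were higher in cells with *Myog*, and *Notch3*, *Hey1* and *Heyl* in cells with progenitor genes. Cells with a *Myog* UMI, the regulator of muscle differentiation, numbered 267 and 333. Those with *Pax7* or *Myf5*, genes of muscle progenitors, and no *Myog* numbered 56 and 61. The remaining 7 and 279 myocyte-like cells had no UMI of these genes and were in neither gate, so more of the class was left out in replicate B. None of these 3 genes is among the 10. The progenitor cells were deep in both replicates, with medians of 32988 and 34510 UMIs, and the *Myog* cells less so, with 26054 and 5214. The part of this depth gap in the values was not tested. At Day 7 the gates held 36 and 17 *Myog* cells and 0 progenitors, so the comparison was made at Day 2 alone.

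*Dll1* was at 35.4 and 34.2 CPM in the *Myog* cells and at 1.51 and 2.41 in the progenitors (263 and 169 UMIs against 3 and 5), which is 17.4 times higher (log2 difference 4.12 ± 0.30, edgeR adjusted p = 4.71e-06). *Jag2* was at 5.11 and 7.09 against 2.01 and 1.45 (1.80 ± 0.50, adjusted p = 0.0195), though only 4 and 3 UMIs were counted in the progenitors. Both replicates had the higher level in the *Myog* cells for either ligand.

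*Hey1* had the opposite distribution, at 14.7 and 13.2 in the *Myog* cells and 77.5 and 72.3 in the progenitors, 5.37 times lower (−2.42 ± 0.14, edgeR adjusted p = 8.45e-07). *Notch3* was at 16.3 and 14.2 against 40.2 and 53.5, 3.03 times lower (−1.60 ± 0.18, adjusted p = 0.00011). *Heyl* was at 12.6 and 12.2 against 22.1 and 16.4 (−0.64 ± 0.22, adjusted p = 0.0443). The 2 gates did not overlap for any of the 3.

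*Notch1* (−0.45 ± 0.21), *Notch2* (0.15 ± 0.21), *Jag1* (−0.45 ± 0.40) and *Hes1* (−0.08 ± 0.10) did not pass the test, and *Hey2*, with at most 1 UMI in a gate, was not tested. Thus 2 of 9 tested genes were higher in the *Myog* cells and 3 lower, where 19.1% and 16.2% of 10719 genes were called in those directions. Among 44 tested genes of the wider pathway list, to be set beside the same shares of all genes, 8 were higher and 5 lower. The higher ones were *Dner*, a non-canonical ligand (3.74), *Neurl1a* (3.11), *Numbl* (2.44) and *Hes6*, a Hes relative linked to differentiation (2.14). The others were *Dlk1*, a Delta-like protein without the Notch-activating domain (2.11), *Rbpj*, the DNA-binding partner of the receptor (1.35), *Fbxw7* (0.75) and *Nedd4* (0.34). The 5 that were lower included the feedback target *Nrarp* (−3.48), *Myc* (−1.82) and the glycosyltransferase *Lfng* (−1.28), which modifies Notch receptors.

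**Figure D3:**
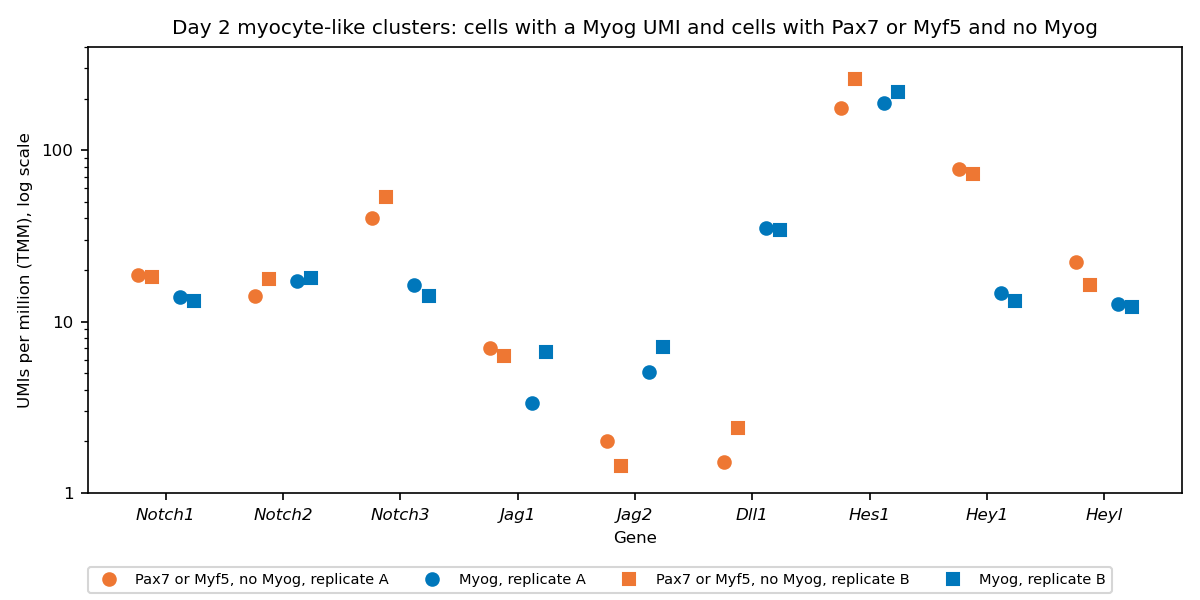
Level (CPM, log axis) of 9 genes in cells with a *Myog* UMI and in cells with *Pax7* or *Myf5* and no *Myog*, in replicates A (circles) and B (squares) of the Day 2 myocyte-like clusters; *Hey2* was not tested and is left out. *Dll1* and *Jag2* lie higher in the *Myog* cells, and *Hey1*, *Notch3* and *Heyl* in the others.

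In the cartilage lineage, *Hes1* changed its place between days. The chondrocyte-like cells, named from cartilage genes such as *Col2a1* and *Acan*, were Cluster 3 at Day 2 (1358 and 1046 cells), Clusters 0, 1, 6 and 12 on Day 7 (5081 and 5100) and Clusters 0, 9, 10 and 12 at Day 10 (2357 and 2133). Cluster 1 of Day 7, with 1587 and 1550 cells, took the name from *Col11a2*, *Matn4* and *Wwp2*, and neither *Col2a1* nor *Acan* was enriched in it. Shallow clusters were not treated alike by the naming rule: Cluster 8 at Day 2 (455 and 575 cells, 8 enriched chondrocyte markers) and Cluster 4 at Day 10 (857 and 1060 cells, 3 markers) were left out for low depth with no marker among their leading genes, while the equally shallow Cluster 9 of Day 10 (357 and 449 cells), with *Wwp2* among its leading genes, was kept. *Hes1* was at 379 and 474 CPM in them and 302 and 370 in the other cells at Day 2. At Day 7 it was at 125 and 132 against 318 and 365, and at Day 10 at 135 and 162 against 369 and 392. The log2 differences were 0.34 ± 0.04, −1.41 ± 0.04 and −1.37 ± 0.04, and the change of the difference between Day 2 and Day 7 was −1.75 ± 0.06 (edgeR, adjusted p = 4.35e-09). The summed level of 12 genes that respond to tissue dissociation was 2396 and 2128 CPM in Cluster 3 of Day 2. Over the clusters of the class it spanned 713 to 1503 on Day 7 and 894 to 2355 at Day 10. In whole cultures it was 1972 and 1782, 1280 and 1347, and 1465 and 1540 on the 3 days. Its part in the *Hes1* differences was not tested.

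*Hey2*, summed over the class, moved likewise, at 1.57 and 1.51 against 0.646 and 0.631 at Day 2. On Day 7 it was at 0.304 and 0.327 against 0.715 and 0.559, on 24 UMIs in the class in each library. The clusters of the Day 7 class differed. *Hey2* was at 0.0943 and 0.0578 CPM in the deep Cluster 0 and at 0 in Cluster 12. In Cluster 1 it was at 1.504 and 1.603, and in Cluster 6 at 0.4237 and 1.12. *Jag1*, summed over the class, was lower in the chondrocyte-like cells on every day, at 8.28 and 7.96 against 10.9 and 12.8 at Day 2. It was at 5.06 and 4.72 against 9.95 and 10.7 on Day 7, and at 4.12 and 4.19 against 12.4 and 11.3 at Day 10. Not every cluster of the class was lower: Cluster 1 of Day 7 was at 21.9 and 18.9, and Cluster 12 of Day 10 at 14.0 and 10.5. *Heyl* was lower on every day too, at 0.443 and 0.258 against 1.89 and 1.48 at Day 2. *Notch2* differed from the other cells most at Day 10, at 32.3 and 33.4 against 21.9 and 20.6 (0.63 ± 0.09).

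Of the 10 genes, 9, 9 and 8 differed in the chondrocyte-like cells at Day 2, 7 and 10, where 43.4%, 69.5% and 68.0% of all genes did. Their class difference changed from Day 2 to Day 7 in 5 genes (43.8% of all genes) and from Day 2 to Day 10 in 7 (46.7%). The levels vary over the clusters of the class. At Day 7 the deep Cluster 0, led by *Snorc* and *Matn1*, had *Hes1* at 72.2 and 73.5 and *Jag1* at 1.60 and 1.65 CPM. The shallow Clusters 1 and 6, whose leading genes include *Lars2* and *Nr4a3* and no chondrocyte marker, had *Hes1* at 256 to 311 and *Jag1* at 10.7 to 21.9. At Day 10 *Hes1* was at 81.8 and 103 in Cluster 0, at 298 and 294 in Cluster 10 and at 537 and 510 in the shallow Cluster 9, above the level of all other cells together. *Notch2* peaked in Cluster 12, led by *Serpina3n* and *Col10a1*, a gene of hypertrophic cartilage, at 59.6 and 59.5, and *Notch1* was at 37.8 and 35.6 in Cluster 10.

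In the contractile-like cells, which carry *Acta2* and *Tagln*, *Jag1* was at 12.2 and 10.9 against 10.4 and 13.0 at Day 2, and at 18.5 and 18.3 against 9.26 and 8.48 at Day 10. The log2 difference went from −0.00 ± 0.09 to 1.05 ± 0.09, and its change between days was 1.05 ± 0.13 (edgeR, adjusted p = 0.000109). *Heyl* was at 2.06 and 1.04 against 1.65 and 1.46 at Day 2, and at 1.93 and 3.15 against 0.7004 and 0.718 at Day 10, where this class held 36.2% and 45.6% of its UMIs and 17.8% and 16.9% of all UMIs. *Notch3* was higher in the class on both days (17.7 and 18.4 against 14.3 and 15.5, then 9.54 and 7.64 against 6.15 and 5.52).

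For these cells 6 genes differed at Day 2 (50.3% of all genes tested) and 7 at Day 10 (61.3%), and the difference changed between the days in 9 (38.6%). Cluster 1 made up the class at Day 2 and Cluster 2 at Day 10, so different clusters stand behind the 2 days, and the Day 10 cluster, led by *Ankrd1* and *Actg2*, had 0 of the 7 contractile markers among its 10 leading genes. On Day 7 Cluster 2 (1459 and 1378 cells) had all 7 markers enriched but more markers of another class among its leading genes and stayed unnamed, and at 2 times the resolution a contractile-like cluster was named on that day. The 7 markers summed to 5525 and 4604 CPM at Day 2, 5165 and 5390 on Day 7 and 8341 and 8986 at Day 10. When the replicates were clustered without integration, the cluster that took this name at Day 2 held 0.174% and 0.140% of all UMIs instead of 30.1% and 23.5%, with 1 and 0 *Notch1* UMIs and 0 of *Notch3*, so the fitted Day 2 differences of −2.97 and −13.79 for these genes rest on almost no molecules. At 0.5 times the resolution no cluster took it at Day 2.

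The joint interzone-like cells, named from *Gdf5*, *Sfrp2*, *Ebf1* and *Hoxd13*, were a single cluster on each day they were found, and the days were clustered apart. The Day 7 cluster, led by *Nppc*, *Grp* and *Dpt*, had 0 of these markers among its 10 leading genes, and the 5 joint interzone markers summed to 704 and 644 CPM in the whole cultures of Day 2 and to 168 and 173 on Day 7. In them *Hes1* was at 396 and 474 against 348 and 430 at Day 2, and at 490 and 563 against 241 and 266 on Day 7, so that the log2 difference grew from 0.16 ± 0.03 to 1.05 ± 0.03. The class also had the highest sum of 12 genes that respond to tissue dissociation, 4024 and 3880 CPM at Day 2, where Cluster 6 was close at 3435 and 2967 and the immune-like cells of replicate A at 3797, and 6137 and 5901 on Day 7, where the other clusters lay between 383 and 2990, and the part of these genes in the *Hes1* difference was not tested. *Notch3* was at 16.1 and 17.0 against 16.8 and 17.7 at Day 2, and at 7.58 and 7.98 against 4.91 and 4.30 on Day 7 (0.76 ± 0.11). *Notch1* was lower on both days, at 10.95 and 11.7 against 17.8 and 17.1, then 11.8 and 10.6 against 18.9 and 18.1. Of the 10 genes, 5 differed at Day 2 (53.7% of all genes tested) and 5 on Day 7 (59.3%), and the difference changed in 3 (35.5%). In the myocyte-like cells it changed in 3 as well (7.46%).

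**Figure D4:**
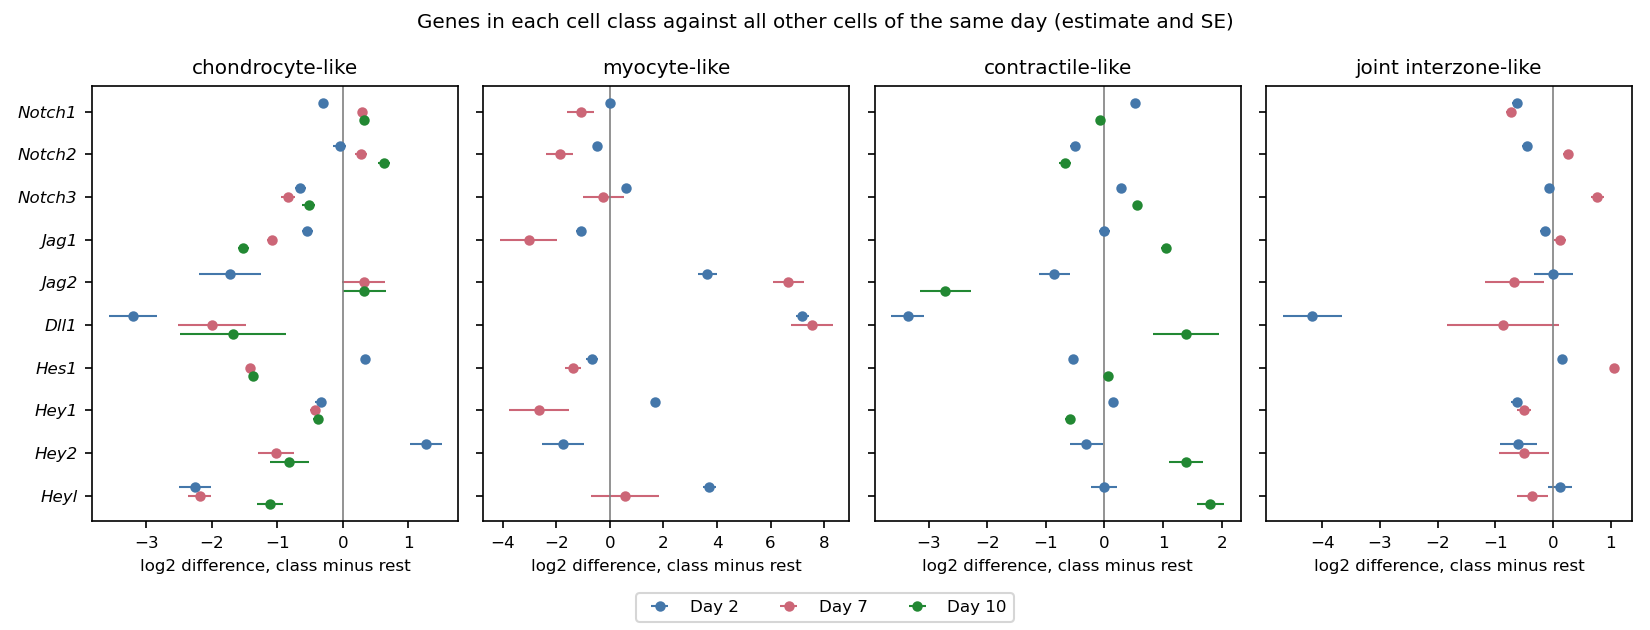
Log2 difference between a class and all other cells of the same day, with its standard error (SE), for each gene, class and day (colours); the estimate for *Hey2* in the Day 7 myocyte-like cells, with 0 UMIs, is left out. *Dll1* in the myocyte-like cells stands at 7.19 at Day 2, and *Hes1* moves from 0.34 to −1.41 in the chondrocyte-like cells and from 0.16 to 1.05 in the joint interzone-like cells.

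Outside these classes, single clusters led for some genes, ranked by the mean of both replicates. *Jag2* at Day 10 was highest in the immune-like cells, at 11.7 and 6.94 CPM, which held 34 of 116 and 27 of 90 of its UMIs, and next in the osteoblast-like cells at 3.04 and 2.33. *Hey1* was at 24.5 and 23.5 in the interdigital-like cells of Day 2, beside a median of 9.30 over the clusters of that day. *Hes1* at Day 2 was highest in the unnamed Cluster 6, led by *Wnt4*, at 677 and 771, and on Day 7 in the joint interzone-like cells, at 489 and 546, close to the unnamed Cluster 11 at 494 and 521. The immune-like cells had the lowest *Hes1* on Day 7 (58.9 and 74.3), near Cluster 0 of the chondrocyte-like cells, and at Day 10 (56.7 and 72.5).

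Some clusters of low depth had high receptor levels and others had low ones. At Day 2, Cluster 8, led by *Lars2* and mitochondrial genes with medians of 2839 and 3008 UMIs, had the highest mean for all 3 receptors, with *Notch1* at 58.6 and 42.6, *Notch2* at 83.7 and 86.0 and *Notch3* at 49.1 and 37.1, and for *Jag1* at 36.1 and 36.7. In replicate B alone, Cluster 0 was above it for *Notch2* (90.6) and Cluster 7 for *Jag1* (41.5), and in replicate A the 19 cells of Cluster 10 were above it for *Notch1* (73.1). At Day 10, *Notch3* (24.3 and 19.1) and *Jag1* (40.2 and 36.9) were highest in the unnamed Cluster 8, led by *Myh11* and *Lars2*, with medians of 7171 and 6419 UMIs. On Day 7 the shallow Cluster 9, with medians of 1792 and 1901 UMIs, had the lowest mean of *Notch1*, at 8.52 and 9.08. The part of depth in these levels was not tested.

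Dissociation of tissue into cells is known to switch on early response genes, and *Hes1* moved with them. Over 96 sums of a cluster in a library, the correlation of *Hes1* with the summed level of 12 such genes (*Fos*, *Jun*, *Egr1* and others) was 0.50, and within days it was 0.51 (24 sums), 0.44 (32) and 0.40 (40). The sums share libraries and depth, and this is a description. By library the 12 genes summed to 1972 and 1782 CPM at Day 2, 1280 and 1347 on Day 7 and 1465 and 1540 at Day 10, so Day 7 was lowest for them as for *Hes1*. Within Day 2 the replicate with the higher sum had the lower *Hes1*, and the immune-like cells of Day 10 had high sums (3197 and 2744) with the lowest *Hes1*. Their part in the *Hes1* changes was not tested.

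**Figure D5:**
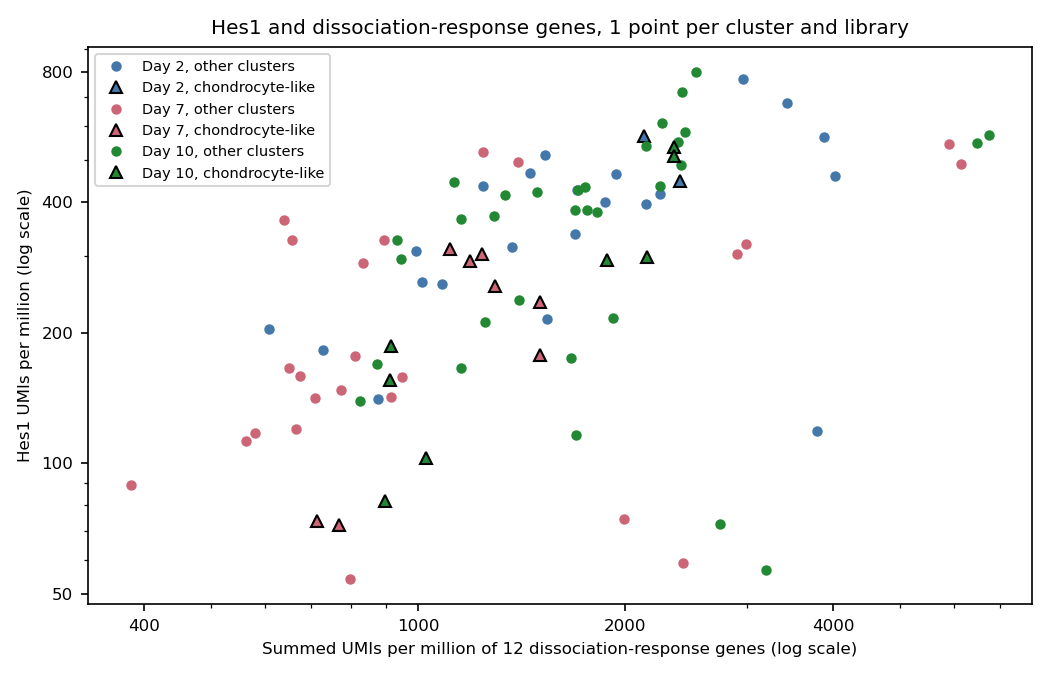
*Hes1* (CPM, log axis) against the summed level of 12 dissociation-response genes (log axis), 1 point for each cluster of at least 20 cells in each library, coloured by day, with chondrocyte-like clusters as triangles. The correlation was 0.50 over 96 points, and the chondrocyte-like clusters of Day 7 reach down to 72.2.

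The genes with the most similar pattern over the same 96 sums, among 8325 genes with a mean of at least 10 CPM, were ranked by the Pearson correlation of log2 levels. For *Dll1* they were *Neb* (0.84), *Arpp21* (0.83) and *Myod1* (0.83), and for *Jag2* the muscle gene *Tnni2* (0.75), *Itga4* (0.75) and *Atp2a1* (0.67). *Npc1* stood first for *Notch1* (0.80) and *Dab2ip* for *Notch3* (0.79). The first was *Slmap* for *Jag1* (0.78), *Fbxl7* for *Hes1* (0.81), *Tcf7l2* for *Hey1* (0.75), *Arhgap29* for *Heyl* (0.68) and *Smad7* for *Hey2* (0.59).

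For shares over single cells, those of at least 3000 UMIs were thinned to that depth and the others left out. This removed 6.84% and 41.4% of cells at Day 2, 30.8% and 23.5% on Day 7 and 7.92% and 10.9% at Day 10. In the cells that remained, a receptor UMI was found in 16.4% and 22.2% at Day 2, 14.2% and 13.4% on Day 7 and 14.4% and 13.5% at Day 10, and a ligand UMI in 4.04% and 5.50%, 2.55% and 2.74%, and 3.44% and 3.39%. Over all kept cells, with counts as deposited, the receptor shares were 38.5 to 62.0%. Thinned shares of *Notch3* were 4.96% and 4.92% at Day 2, 1.54% and 1.29% on Day 7 and 2.14% and 1.75% at Day 10, in the order of its summed level. Cells with both a receptor and a ligand UMI numbered 42 to 127 per library, 0.958 to 1.42 times the product of both shares, and above it in 5 of 6 libraries.

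The wider pathway was given by a list of 55 further genes, of which 54 were tested (the endothelial ligand *Dll4* was too rare). Between Day 2 and Day 7, 20 were higher, 22 lower and 12 did not pass, between Day 7 and Day 10 15, 8 and 31, and between Day 2 and Day 10 24, 22 and 8. Of all genes tested, 35.7% were higher and 34.6% lower in the first of these comparisons, 26.3% and 25.9% in the second and 39.0% and 38.2% in the third. Of the 9 genes for cleavage of the receptor, 8 were higher at Day 10 than at Day 2 and 1 lower: *Psen2*, a catalytic subunit of γ-secretase, rose by 2.00 on the log2 scale, while *Adam10*, the protease that cuts the receptor outside the cell, fell by 0.40. Of the 10 genes of the nuclear complex, 3 were higher and 7 lower, among them *Rbpj* (−0.82) and the coactivator *Maml3* (−1.70). Of 7 further target genes, 2 were higher (*Myc* at 0.45 and *Gata3* at 0.29) and 5 lower, with *Hes5* at −2.16, *Hes7* at −1.36 and *Nrarp* at −1.21.

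*Dlk1* rose by 2.05 from Day 2 to Day 7 and fell by 1.73 from there to Day 10, and its relative *Dlk2* rose by 1.84 and again by 0.69. *Notch4*, the remaining receptor, fell by 1.48 from Day 2 to Day 7, and *Dtx1*, a ubiquitin ligase that binds Notch, by 2.27. The ubiquitin ligases that act on ligands rose in 2 of 4 cases, *Mib2* by 1.19 and *Neurl1b* by 1.79, and *Mib1* (−0.06) and *Neurl1a* (−0.09) did not pass the test.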

How the data were processed

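The 6 libraries (replicates A and B of Day 2, Day 7 and Day 10) were 3′ single-cell RNA libraries. The deposited values are UMI counts per gene and cell, made by the authors with Cell Ranger 6.1.2 and STAR on GRCm38 (mm10), and Seurat 4.1.0 is named in the submitters' processing notes; the annotation release is not given in the sources used here. Cells within the limits the study states on UMIs, genes and mitochondrial and ribosomal shares were kept, and no doublet caller was run. Each day was clustered with Seurat 5.3.0 (sctransform 0.4.2, anchor integration, 35 dimensions, 3000 features less the pathway genes, resolution 0.5, 0.5 and 0.7). A cluster was named from at least 3 enriched markers, unless its 10 leading genes held more markers of another class, or held none of its own while its median UMI count was under 1/3 of that of its library; this rule was set after the leading genes had been seen, so rebuilt names may differ from those of the study. The 10 genes, the pathway lists and the markers were chosen with earlier results of these data known.

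UMIs were summed per library, over all cells or per class, and tested with edgeR 4.0.16 (quasi-likelihood, TMM factors 0.927 to 1.14, filterByExpr, Benjamini-Hochberg adjustment over all genes tested, calls at an adjusted p under 0.05) in R 4.3.3. Class effects had the library as a term. DESeq2 1.42.0, other filters, cell sets and clusterings, a replicate block and leaving out each library were the alternatives. The script was tested on simulated counts. Named genes were the 10 genes, called pathway genes, and the 3 genes most correlated with each of the 10, of which some are not reported here. The p-values of whole cultures rest on the spread between cultures of a day, pooled over the 6 libraries. This spread was moderated by that of other genes (3 residual and 5.48 prior degrees of freedom). For classes and the *Myog* gates, p-values rest on the spread of the difference between libraries, with 1 to 3 residual degrees of freedom. It too was moderated by the spread of other genes. The prior degrees of freedom exceeded the residual ones in every such fit, so these p-values rest more on other genes than on the gene itself. In the myocyte-like fit the prior was infinite, so the spread was set from all genes together. Each SE was derived from the estimate and its test statistic. Intervals are exact binomial and cover counting error only.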

Additional observations from a re-analysis of the deposited data

Results flagged for a closer look

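These results were singled out because the difference between a cell class and the other cells of its day itself changed between days, by a test of that change in the same edgeR fit (adjusted p under 0.05). Values are changes of the log2 difference, later day minus earlier day. Such a change can come from the class, from the other cells or from both. Clusters were made for each day apart, so a class is made of different clusters on different days.

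In the chondrocyte-like cells, from Day 2 to Day 7, the difference rose by 0.59 for *Notch1* and 2.04 for *Jag2* (4 and 7 *Jag2* UMIs in the class at Day 2) and changed by −0.54 for *Jag1*, −1.75 for *Hes1* and −2.28 for *Hey2*. From Day 7 to Day 10 it changed by −0.44 for *Jag1* and 1.07 for *Heyl*, but the change for *Jag1* was 0.67 at 2 times the clustering resolution and 0.40 without integration. From Day 2 to Day 10 the changes were 0.62 for *Notch1*, 0.67 for *Notch2*, −0.98 for *Jag1*, 2.05 for *Jag2*, −1.71 for *Hes1*, −2.08 for *Hey2* and 1.14 for *Heyl*.

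In the myocyte-like cells, from Day 2 to Day 7, it changed by 3.03 for *Jag2*, −4.32 for *Hey1* and −3.15 for *Heyl*, on 83 and 61 cells at Day 7, which held 0 and 1 *Hey1* UMIs and 1 and 1 *Heyl* UMIs. In the contractile-like cells, from Day 2 to Day 10, it changed by −0.60 for *Notch1*, 0.28 for *Notch3*, 1.05 for *Jag1*, −1.85 for *Jag2* (3 UMIs in the class in each Day 10 library), 4.75 for *Dll1*, 0.60 for *Hes1*, −0.74 for *Hey1*, 1.71 for *Hey2* and 1.82 for *Heyl*. Without integration, where few molecules were left in the class at Day 2, those of *Notch1*, *Jag2* and *Hey1* turned to 2.84, 7.12 and 0.71. For *Dll1* the class held 12 and 5 UMIs at Day 2 and 4 and 5 at Day 10 (0.185 and 0.113, then 0.0978 and 0.143 CPM), while the other cells went from 1.75 and 1.35 to 0.0403 and 0.0493 CPM. In the joint interzone-like cells, from Day 2 to Day 7, it changed by 0.71 for *Notch2*, 0.82 for *Notch3* and 0.89 for *Hes1*. The level of *Notch3* itself fell in the class, but by less than in the other cells. That of *Hes1* rose in the class while it fell in the other cells.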

How the results depend on the processing

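Over the whole cultures, 349 of 390 alternative values kept their side of the threshold, 29 lost a call, 12 gained one and no called value reversed; 12 of the 349 changed sign with no call. The falls of *Notch3*, *Dll1* and *Hey1* from Day 2, and those of *Jag1* and *Hes1* to Day 7, were called under every alternative run. The cause of each change below was not tested.

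Of the 10 genes, 0 were called lower from Day 7 to Day 10 by the DESeq2 Wald test and 2 with no filter on low counts. Without 1 library, 2 to 4 were called higher and 0 to 1 lower in that comparison. The replicate block moved the genes called from 13342 to 13135, from 9913 to 9607 and from 14670 to 14524, and *Jag1* at Day 10 against Day 2 became −0.18 (adjusted p = 0.0647), leaving 5 genes lower; it changed no other call of the 10 genes. Over 18987 genes, samples of the same letter did not deviate together (correlations −0.0164, −0.0574 and −0.00765). Such a correlation cannot show whether the days shared a seeding, since a small shared effect could go unseen, so pairing by letter remains unknown.

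At 2 times the resolution, *Notch2* in the chondrocyte-like cells of Day 7 was −0.013, the genes called higher there 0, the Day 10 minus Day 7 change of *Jag1* 0.67, *Jag1* in the contractile-like cells of Day 2 0.25 and the genes called higher there 4. At 0.5 times, where the chondrocyte-like cells of Day 2 held 32.5% and 32.4% of all UMIs instead of 12.1% and 12.7%, *Notch1* and *Notch3* in them were 0.058 and 0.085, with 1 gene called higher, the Day 10 minus Day 2 change of *Notch3* was −0.66, *Hey1* in the contractile-like cells of Day 10 was 0.18, and 4 genes were called lower in the joint interzone-like cells of Day 7. Without integration, 1 gene was called higher in the chondrocyte-like cells of Day 7, their Day 10 minus Day 7 change of *Jag1* was 0.40, *Notch2* in the myocyte-like cells of Day 2 was 0.080 with 0 genes called lower, and in the contractile-like cells, at Day 2 a cluster of 0.174% and 0.140% of all UMIs with 0 of *Notch3*, *Notch1* and *Notch3* at Day 2 were −2.97 and −13.79 with 0 genes called higher, and the changes of *Notch1*, *Jag2* and *Hey1* were 2.84, 7.12 and 0.71. By the DESeq2 Wald test, 1 gene was called lower in the myocyte-like cells at Day 2 and 1 at Day 7, and 1 higher in the contractile-like cells at Day 2. In cells of at least 3000 UMIs, 5 were lower in the myocyte-like cells of Day 7.

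Without 1 library, *Notch2* in the chondrocyte-like cells of Day 2 ranged from −0.34 to 0.25, and 1 to 2 genes were called higher there at Day 7. In the myocyte-like cells 0 to 4 were lower at Day 2, 1 to 2 higher and 1 to 5 lower at Day 7, and *Dll1* at Day 7 ranged from −5.74 to 7.95. In the contractile-like cells of Day 2, 1 to 3 were higher. In the *Myog* gates no call was lost or gained under the alternatives run, and 1 value with no call changed sign; leaving out a library was not run there, since no residual degrees of freedom were left.

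Shares of cells moved with thinning, which also left out the cells below the chosen depth. As deposited, a receptor UMI was found in 62.0%, 42.7%, 39.7%, 38.5%, 55.2% and 50.6% of cells (Day 2 A and B, Day 7 A and B, Day 10 A and B) and a ligand UMI in 19.7%, 12.6%, 9.01%, 9.38%, 17.7% and 15.8%. Thinned to 1000 UMIs, these were 6.30%, 9.05%, 5.71%, 4.84%, 5.11% and 4.89%, and 1.44%, 2.30%, 1.19%, 1.36%, 1.46% and 1.23%.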
